A study of Mus musculus with 2 samples.

Results

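The 1028 regions described here are strong peaks of open chromatin, far from gene ends, that were called in the control library and not in the Brg1 cKO library. They were selected on the deposited values: a control peak on chromosomes 1 to 19 or X whose summit had a -log10 p of at least 6 from the peak caller, which lay more than 1000 bp from both ends of every annotated gene, and which shared not even 1 bp with a cKO peak. They are called missing peaks below, and make up 1028 of 77529 control peaks in all, and of 18028 strong distal ones. The peaks compared with them, called kept peaks, are the 15181 strong distal control peaks of the same range of -log10 p, 6.02 to 8.96, that did overlap a cKO peak. The missing peaks lay on all 20 of these chromosomes, and 1 further peak that met the other criteria lay on another sequence and was left out.

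Chromatin was profiled by ATAC-seq in tdTomato-positive cells sorted from mouse kidneys at E18.5, with 50000 cells in a reaction. One library came from kidneys of genotype Brg1cKO/cKO and one from kidneys labelled WT control. The labels name the Wnt4 lineage as the cell type of the cKO library and read only control for the other library; its Wnt4 lineage rests on the title and the common protocol. The Cre line, the sex, the number of animals behind a library and how the reporter was activated are not stated by the labels used here. With 1 library per genotype there was no replicate spread, no test between genotypes and no p-value; a missing peak was not called in 1 library, and its genotype cannot be told apart from that library's depth, background or preparation. Intervals in parentheses are exact Clopper-Pearson 95% intervals, cover counting error alone, for these 2 libraries. The lists give no read counts, so depth is unknown, and no call in the cKO library does not mean closed chromatin there.

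Brg1, encoded by Smarca4, is an ATPase of the BAF chromatin remodelling complexes, which slide and evict nucleosomes and are known for keeping distal enhancers accessible to transcription factors. Distal open regions carry much of the cell type identity of a tissue, while promoters with many CpG dinucleotides are open in most cells. In the kidney, Wnt4 is switched on as mesenchyme turns into the epithelium of the nephron, whose cells become podocytes of the glomerulus, proximal tubule, loop of Henle and distal tubule.

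Sequence could be read for the few missing peaks that lay over an annotated transcription start, from the 250 bases before each start in RefSeq (build GRCm38.p6, the assembly of mm10). Such starts can lie inside a gene, far from its outer ends, and 8 missing peaks overlapped the window around one. The sequences are shown because these regions look unlike the CpG-rich promoters that open in most cells, which was seen before they were chosen for printing. Low CpG is not particular to them: many start windows of kept peaks of the same strength are as low, as given below. The sequences are printed 5′ to 3′ on the strand of the gene, and capitals mark each CpG. The windows wholly inside a missing peak were those of Aldh1a1, which makes retinoic acid (chr19:20601718-20601967, + strand), the noncoding Gm31486 in the Podxl locus (chr6:31618952-31619201, + strand), Lipe, hormone-sensitive lipase (chr7:25390113-25390362, - strand), Mob2, a MOB family kinase regulator (chr7:142025960-142026209, - strand), Pla2g5, a secreted phospholipase (chr4:138819258-138819507, - strand), and Slc20a1, a sodium-phosphate transporter (chr2:129206846-129207095, + strand).
Aldh1a1: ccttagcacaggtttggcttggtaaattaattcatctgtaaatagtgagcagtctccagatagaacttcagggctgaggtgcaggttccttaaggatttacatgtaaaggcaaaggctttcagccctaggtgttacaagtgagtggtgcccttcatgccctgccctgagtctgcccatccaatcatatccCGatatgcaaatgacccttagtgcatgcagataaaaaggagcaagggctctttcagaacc
Gm31486: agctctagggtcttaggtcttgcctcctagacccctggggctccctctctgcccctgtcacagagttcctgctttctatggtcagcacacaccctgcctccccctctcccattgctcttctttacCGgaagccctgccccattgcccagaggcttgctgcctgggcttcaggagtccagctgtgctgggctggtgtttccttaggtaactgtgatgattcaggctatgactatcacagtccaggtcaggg
Lipe: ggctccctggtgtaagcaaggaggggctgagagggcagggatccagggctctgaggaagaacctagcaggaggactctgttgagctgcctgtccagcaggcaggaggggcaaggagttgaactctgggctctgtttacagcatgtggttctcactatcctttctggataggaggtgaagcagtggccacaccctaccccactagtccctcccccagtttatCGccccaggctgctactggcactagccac
Mob2: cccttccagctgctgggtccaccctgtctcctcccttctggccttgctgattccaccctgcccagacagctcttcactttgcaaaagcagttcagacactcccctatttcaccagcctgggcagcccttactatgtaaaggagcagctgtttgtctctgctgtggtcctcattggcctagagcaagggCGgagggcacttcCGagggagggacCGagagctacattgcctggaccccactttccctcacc
Pla2g5: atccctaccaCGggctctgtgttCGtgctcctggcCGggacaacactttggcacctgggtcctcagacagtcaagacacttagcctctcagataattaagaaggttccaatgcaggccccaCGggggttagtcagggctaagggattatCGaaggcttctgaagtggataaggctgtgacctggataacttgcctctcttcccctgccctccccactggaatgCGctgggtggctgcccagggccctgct
Slc20a1: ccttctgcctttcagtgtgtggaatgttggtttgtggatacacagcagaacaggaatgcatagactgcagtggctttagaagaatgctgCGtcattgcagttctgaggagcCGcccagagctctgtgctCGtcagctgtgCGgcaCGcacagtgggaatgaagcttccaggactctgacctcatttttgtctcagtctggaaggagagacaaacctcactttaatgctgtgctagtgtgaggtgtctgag

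For contrast, these are 2 such windows inside kept peaks, chosen as those with the CpG ratio closest to the median of the kept peaks of the same strength: Stap2, a signalling adaptor (chr17:56005607-56005856, - strand), and Tbxas1, thromboxane synthase (chr6:38918736-38918985, + strand).
Stap2: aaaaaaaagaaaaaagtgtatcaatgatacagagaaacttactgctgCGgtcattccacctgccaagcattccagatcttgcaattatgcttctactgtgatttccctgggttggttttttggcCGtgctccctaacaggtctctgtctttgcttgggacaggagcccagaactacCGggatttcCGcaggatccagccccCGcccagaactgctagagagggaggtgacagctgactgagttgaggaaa
Tbxas1: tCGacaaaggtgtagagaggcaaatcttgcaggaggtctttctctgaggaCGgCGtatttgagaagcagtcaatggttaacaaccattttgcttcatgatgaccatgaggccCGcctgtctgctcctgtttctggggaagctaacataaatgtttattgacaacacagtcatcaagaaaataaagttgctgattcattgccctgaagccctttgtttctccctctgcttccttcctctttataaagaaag

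The printed windows of the missing peaks held 1 CpG in Aldh1a1, Gm31486 and Lipe, 3 in Mob2, 5 in Slc20a1 and 6 in Pla2g5, against 5 in Stap2 and 4 in Tbxas1. The CpG ratio is the number of CpG divided by the number that the C and G content alone would give. Over the windows of the 8 missing peaks its median was 0.218 (range 0.0465 to 0.354). It was 0.336 over the 176 kept peaks with a start window in the same range of -log10 p (quartiles 0.216 and 0.527) and 0.373 over all 32851 windows of the table. Of the 176 kept windows, 81 (46.0%) lay above the highest missing one, that of the noncoding Gm34741, whose 250 bases lie outside its peak. Among the windows wholly inside a missing peak, the highest ratio was 0.317, at Slc20a1. GC content had a median of 54.0% in both sets, so the medians differed in CpG and not in GC. The window of the noncoding C230062I16Rik, beside Zfp74, was covered in part and that of the noncoding Gm34741 only after its start, and neither is printed. No sequence of the remaining missing peaks was analysed here, and no transcription factor motif was searched.

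The missing share of peaks over a start was below that of the others. Of 463 strong distal peaks of the range over a start window, 8 were missing (1.73%, 0.749 to 3.38%), against 1020 of 15746 others (6.48%, 6.10 to 6.87%). The pooled shares were not matched for strength. In the step of -log10 p from 6 to 6.5 these shares were 3.75% of 80 (0.780 to 10.6%) and 10.8% of 5440 (9.996 to 11.7%). From 6.5 to 7 they were 3.41% of 88 (0.709 to 9.64%) and 7.25% of 3984 (6.47 to 8.10%), and from 7 to 7.5 they were 2.82% of 71 (0.343 to 9.81%) and 3.75% of 2719 (3.07 to 4.54%). From 7.5 to 8 they were 0 of 72 and 1.85% of 1732. From 8 to 8.5 they were 0 of 68 and 0.686% of 1166, and from 8.5 to 9 they were 0 of 84 and 0.142% of 705. The intervals overlapped within each of these steps. Weighted to the steps of the missing peaks, 1.98% of kept peaks lay over a start window. Of the missing peaks, 0.778% (0.337 to 1.53%) lay over one. Among the control peaks within 1000 bp of a gene end, which the selection left out, 115 of 6122 of the same range were missing (1.88%, 1.55 to 2.25%).

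The missing share fell steeply with the strength of the control peak, and since strength chose the regions this is a description. A cKO peak was absent for 25.9% of all control peaks and for 32% of all distal ones, but for 5.7% of the distal peaks with a -log10 p of at least 6 and for 6.34% of those in the range of the missing peaks. In steps of 0.5 from 6 upwards, 591 of 5520, 292 of 4072, 104 of 2790, 32 of 1804, 8 of 1234 and 1 of 833 peaks were missing, which is 10.7%, 7.17%, 3.73%, 1.77%, 0.648% and 0.120%. Above 9, 0 of 1775 were missing, with an exact upper limit of 0.208%; 3 counts of 1775, the limit that a count of 0 allows, is 0.169%. With an overlap of at least 50% of the control peak required, 1610 were missing, and with only cKO peaks of at least 5 counted, 2273. The median -log10 p of the missing peaks was 6.41, so most lay close to the threshold. The lowest value above it, 6.02, was shared by several missing peaks, among them those nearest to Caprin1, Aldh1a2, Myh3 and Mbnl1, and unmatched peaks just below it, at 5.998, included those in Agap1, Rheb, Clasp1, Ccbe1 and Hrg.

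**Figure D1:**
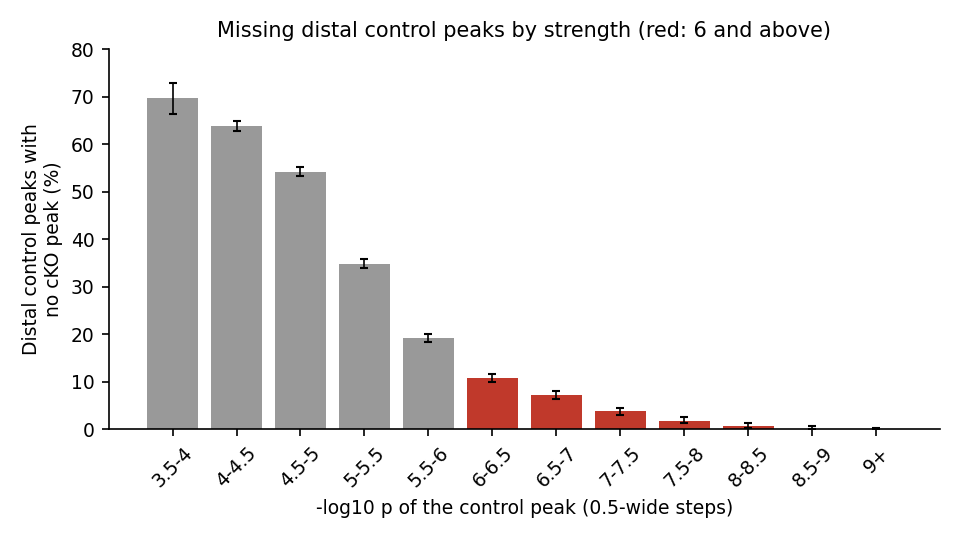
Percent of distal control peaks with no cKO peak (y axis) by the -log10 p of the control peak in steps of 0.5 (x axis); bars are shares, error bars exact 95% intervals, and red bars the steps from 6 upwards. The share falls from 69.7% in the lowest step to 10.7% in the step from 6 to 6.5 and 0 of 1775 above 9.

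The kept peaks of each step show how strong the cKO counterpart of such a control peak usually was. Where several cKO peaks overlapped a control peak, the first by coordinate was taken, which need not be the strongest, so the values can be too low. For control peaks between 6 and 6.5 this cKO peak had a median -log10 p of 5.77, and its lowest 5% ended at 4.58. For those between 7 and 7.5 the values were 6.57 and 4.96, and between 8 and 8.5 they were 7.42 and 5.57. Kept peaks are by definition those with a counterpart in the cKO list, which reached down to 3.58, so these values do not show what a missing counterpart would have had. They come from the separate fits of 2 libraries and were not compared as levels.

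Missing peaks were smaller than kept ones of the same steps of strength, though not the smallest. The steps did not match strength fully: the median -log10 p was 6.41, against 6.55 in the weighted kept peaks. Area, the summed signal under a peak, and width come from the same reads as the selection and are described only. The median width was 835.5 bp (125 to 2546) against 936 bp in kept peaks weighted to the same steps, and the median area was 888 against 1048. The width difference turned to 39.4 bp wider when strength was ranked by area, to 2.61 bp wider when an overlap of at least 50% was required and to 9.47 bp wider when only cKO peaks with a -log10 p of at least 5 counted; the area difference, -160.4 here, shrank to -22.2 in the last of these. When the peaks of each step were divided into 4 equal classes by width, 6.29%, 9.45%, 6.39% and 3.23% were missing from the narrowest to the widest. By area the shares were 5.60%, 11.3%, 6.39% and 2.12%. The second class had the highest missing share in both divisions and the top class the lowest. The widest missing peaks lay in Poc1b, whose nearest gene end is that of Galnt4 (2546 bp), in Mcc (2454 bp) and in Kcnq1, a potassium channel gene (2377 bp). The narrowest were beside Tex35 (125 bp), in Zfp791 (176 bp) and near the start of chromosome 9 (193 bp), where Alkbh8 is the nearest protein-coding gene at 325 kb and 27 of 28 other control peaks within 50 kb were kept.

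The missing peaks lay deeper inside genes and farther from gene ends than kept peaks. The summit was inside a protein-coding gene for 672 of 1028 (65.4%, 62.4 to 68.3%). For kept peaks the share was 56.7% (55.9 to 57.5%), and 56.0% when weighted to the same steps of strength. Genes longer than 100 kb held 37.5% (34.6 to 40.6%) of missing peaks, against 28.6% of kept peaks and 29.4% when weighted. Between genes lay 28.3% of missing and 36.0% of kept peaks, and in a noncoding gene or pseudogene alone 6.32% and 7.28%. The median distance to the nearest end of any gene was 14.3 kb for missing and 9.63 kb for kept peaks (9.95 kb weighted), and to the nearest protein-coding gene end 27.2 kb and 19.7 kb (21.1 kb weighted).

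Read the other way, the missing share of strong distal peaks rose with distance from a gene end. It was 4.30% at 1 to 2 kb, 4.75% at 2 to 5 kb, 5.66% at 5 to 10 kb, 6.605% at 10 to 20 kb, 8.31% at 20 to 50 kb and 8.73% beyond. Strength alone would give 6.03% in the nearest and 6.71% in the farthest class, if each peak were missing as often as all strong distal peaks of its step. Inside protein-coding genes the share rose from 5.46% (3.98 to 7.28%) to 9.02% (7.82 to 10.3%) at 20 to 50 kb and 8.71% (7.08 to 10.6%) beyond. Between genes it rose from 3.18% (1.87 to 5.05%) to 8.85% (6.31 to 11.99%). The intervals inside and between genes overlapped in each distance class except 10 to 20 kb, where they were 6.403 to 8.82% and 3.82 to 6.31%. By length of the host gene, 5.25% were missing in genes shorter than 50 kb, 7.77% at 50 to 100 kb, 8.79% at 100 to 200 kb and 7.65% above. By chromosome the share ran from 4.73% on chromosome 8 to 7.95% on chromosome 12, and the X chromosome had 8 of 130 missing (6.15%, 2.69 to 11.8%).

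**Figure D2:**
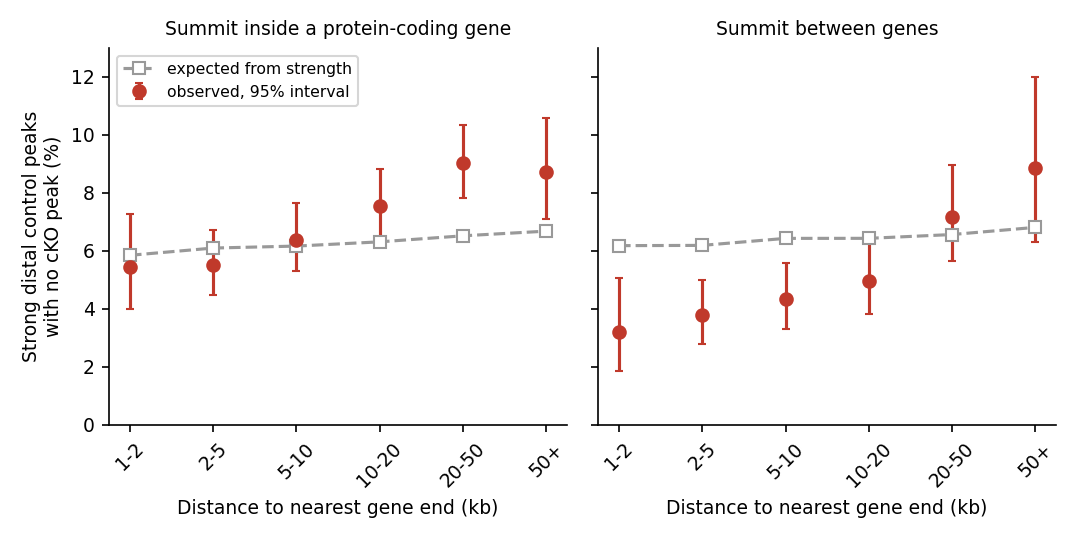
Percent of strong distal control peaks with no cKO peak (y axis) by distance to the nearest gene end in kb (x axis), for summits inside a protein-coding gene (left) and between genes (right); red points are shares with exact 95% intervals, and squares the share expected from strength alone. Both panels rise with distance, from 5.46% to 8.71% on the left and from 3.18% to 8.85% on the right, while the squares stay between 5.84% and 6.81%.

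The surroundings of a missing peak also held fewer shared peaks, measured on control peaks other than the strong distal ones. These were scored against the same cKO list that chose the missing peaks. A cKO peak reaching from a close neighbour to the region would have made that region kept. Part of the deficit at short range can thus come from the selection, and the expected shares do not allow for it. Within 10 kb of the missing peaks lay 995 other control peaks, of which 507 overlapped a cKO peak (51.0%, 47.8 to 54.1%). Peaks of their strength and distance class overlapped one in 64.6% of cases over the whole control list. Neighbours near peaks of both kinds were counted with the missing peaks alone, here and within 50 kb. Around the kept peaks, 9789 of 14478 neighbours were kept (67.6%, 66.8 to 68.4%), with 66.1% from strength and distance class. Within 50 kb the shares were 59.2% against 66.2% around missing and 68.5% against 67.9% around kept peaks. The difference within 10 kb, -13.7 points, was -7.48 for missing peaks with a -log10 p of at least 5 and -6.79 with only cKO peaks of at least 5 counted. The neighbours are peaks of the same 2 libraries, and closely spaced ones can be parts of one open region.

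The difference shrank with distance. At 0 to 2 kb from the summit of a missing peak, 38 of 118 neighbours were kept (32.2%, with 57.8% from strength and class). At 2 to 5 kb 49.5% were kept (65.5%), at 5 to 10 kb 55.1% (65.7%) and at 10 to 20 kb 53.8% (64.8%). From 20 to 50 kb the share was 62.0% (66.9%), and at 200 to 500 kb it was 66.5% (67.7%), a difference of -1.18 points. Around kept peaks the observed share was 4.14 points higher at 0 to 2 kb and differed by -0.53 points at 10 to 20 kb.

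**Figure D3:**
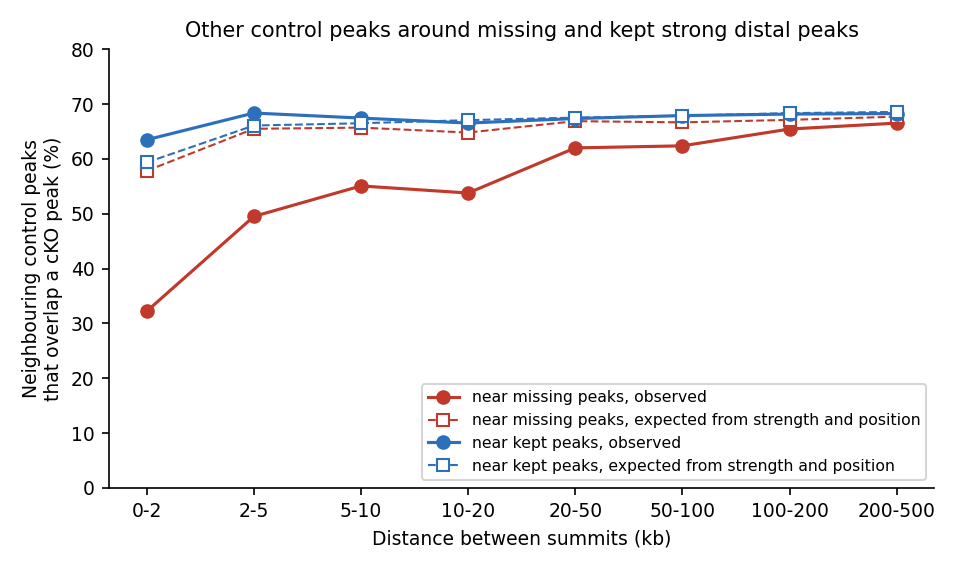
Percent of other control peaks that overlap a cKO peak (y axis) by distance between summits in kb (x axis), around missing (red) and kept (blue) strong distal peaks; filled circles are observed shares and open squares those expected from strength and distance class. The red circles start at 32.2%, below squares at 57.8%, and reach 66.5% beside 67.7% at 200 to 500 kb; the blue circles start at 63.5%.

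Most missing peaks nonetheless had a cKO peak within 50 kb, 953 of 1028 (92.7%). The nearest cKO peak was a median of 7.90 kb away (quartiles 3.11 and 18.7 kb), within 5 kb for 373 (36.3%) and within 100 kb for 996 of 1028. That nearest cKO peak itself overlapped a control peak in 987 cases (96.0%). The share over all cKO peaks is not given here, so this count does not set the missing peaks apart. Only 33 missing peaks had a cKO peak within 500 bp. The shortest gap, 101 bp, was beside Kdm2b, a histone demethylase gene, and the longest, 528 kb, between genes on chromosome 1 at chr1:19899205-19900278, 158 kb from the nearest protein-coding gene end and with no other control peak within 50 kb. Of the control peaks directly before and after a missing peak both were kept for 41.6% (38.6 to 44.7%) and neither for 14.3% (12.2 to 16.6%), against 56.4% and 7.24% around kept peaks. Another missing peak lay within 10 kb for 35 (3.40%) and within 100 kb for 232 (22.6%), against 2.22% and 16.2% of kept peaks. A peak called in the cKO library alone lay within 50 kb of 15.3% of missing peaks (13.1 to 17.6%) and of 21.5% of kept ones (20.9 to 22.2%). The shares beside kept peaks in this paragraph are not weighted to strength or to the density of peaks. Missing peaks had sparser surroundings: 31.1% had no other control peak within 10 kb, against 23.8% of kept peaks.

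The missing peaks were spread over many genes. With each peak assigned to the protein-coding gene whose end is nearest to its summit, within 100 kb, 870 fell to 777 of the 6926 genes that had a strong distal peak, and 158 to none. Of these 777 genes 700 had 1 missing peak, 65 had 2 and 12 had 3 or more. The ends of the same genes mostly stayed open: 688 of the 777 had a control peak within 1000 bp of an end, and 670 of the 688 had a cKO peak there too (97.4%, 95.9 to 98.4%). Among genes whose strong distal peaks were all kept the share was 97.5% (97.0 to 97.9%). The 18 genes with an end peak in the control alone included Lifr, a receptor of the leukemia inhibitory factor family, Foxn1 and Tspan8.

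Zfp277, a zinc finger gene, had the most missing peaks, 5 of its 6 strong distal peaks. They lay inside the gene at chr12:40327149-40327778, chr12:40341333-40341959, chr12:40392415-40393386, chr12:40429898-40431097 and chr12:40440869-40441281, with a -log10 p of 6.36, 7.195, 6.23, 6.996 and 6.20 in the control library. The gaps to the nearest cKO peak were 69.4, 83.6, 44.6, 6.84 and 2.20 kb, so the first 3 stood far from any cKO peak. In the gene and 100 kb to each side, 11 of 21 control peaks were shared, and all 11 cKO peaks there were shared.

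Adcy1, an adenylyl cyclase that makes cAMP, had 4 of 5 missing, at chr11:7106139-7107193, chr11:7129422-7130404, chr11:7134888-7136065 and chr11:7149061-7150214, with a -log10 p of 6.81, 6.74, 6.55 and 6.08. All 4 lie inside the gene, 3.92 to 10.0 kb from a cKO peak, and 12 of the 26 control peaks of the locus were shared. St3gal3, a sialyltransferase, had 4 of 8 missing, all inside the gene, with a -log10 p between 6.68 and 6.95. Its locus had 26 of 43 control peaks shared. The other genes with 3 missing peaks were Podxl (of 9), Pdzd2 (of 4), Glis3 (of 5), Fabp5 (of 6), Arhgap28 and Galnt10 (of 9 each), Ksr1 (of 10), Trabd2b (of 15) and Abr (of 17). Glis3 is a transcription factor gene linked to cystic kidneys, Ksr1 a scaffold of MAP kinase signalling, and Fabp5 a fatty acid binding protein. All 12 genes kept an open end in the cKO library.

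In 7 genes both strong distal peaks were missing and none was kept: Nf2 (merlin, an upstream part of the Hippo pathway), Irs1 (the insulin receptor substrate), Pard3b (a cell polarity gene), Coro2a, Pstpip2, Tent5c and the complement gene C6. C6 had an end peak in neither library and the others in both. In Nf2 the missing peaks lay inside the gene at chr11:4792840-4793343 and chr11:4800683-4801264, with a -log10 p of 6.21 and 6.78, and the other 5 control peaks assigned to the gene were all kept.

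**Figure D4:**
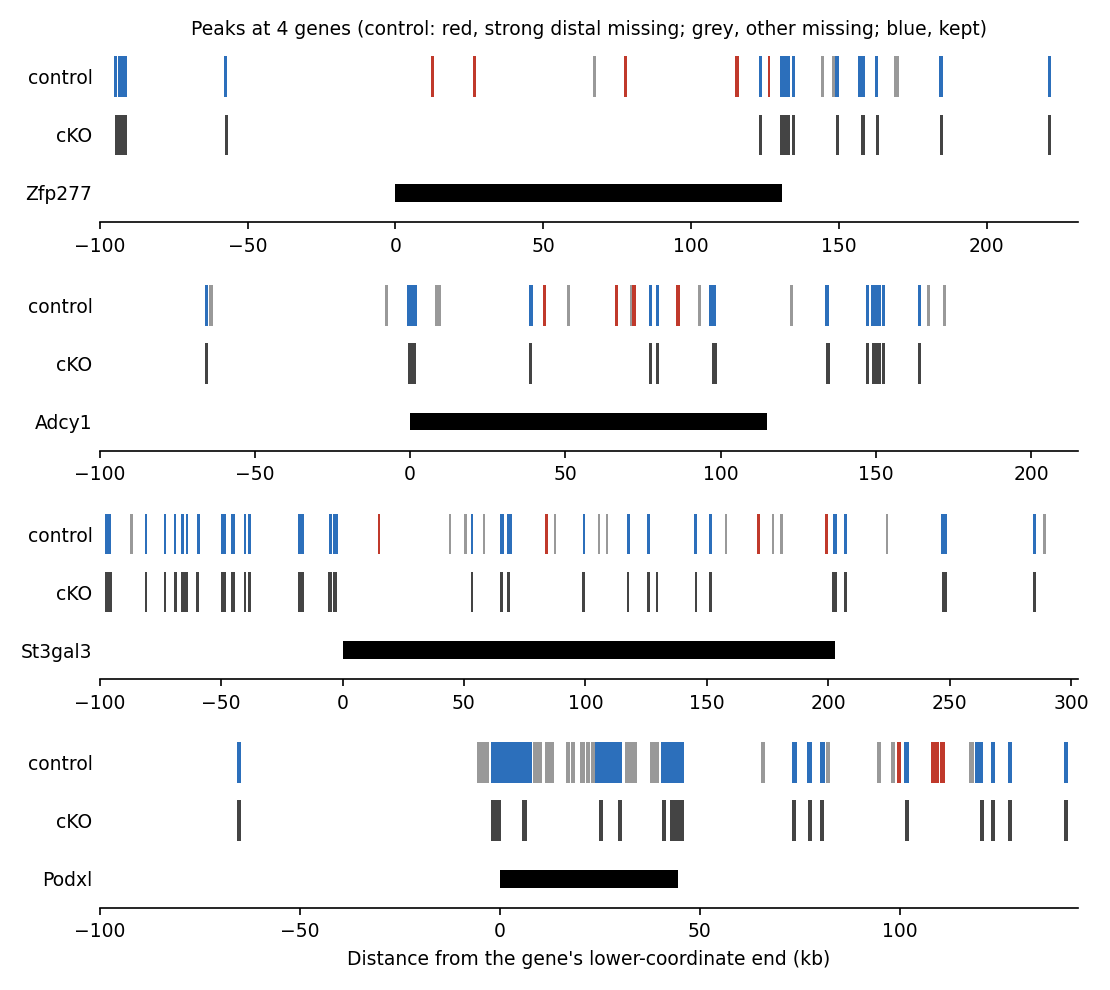
Peaks at Zfp277, Adcy1, St3gal3 and Podxl by distance in kb from the gene's lower-coordinate end (x axis), with the control list above, the cKO list in the middle and the gene as a black bar; red marks the missing strong distal peaks, grey other control peaks with no cKO peak and blue kept ones, and peaks under 1 kb are drawn 1 kb wide. In Zfp277, 5 red peaks span the gene and the blue ones lie around its upper end or outside it, and in Podxl 3 red peaks lie outside the gene.

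Among 19 lists of kidney cell type markers and signalling genes (480 genes), podocyte genes had the highest missing share, 13 of 72 strong distal peaks (18.1%, 9.98 to 28.9%), against 6.34% of all peaks of the range and 5.95% from their strength. The lists were written with earlier results of these libraries known, so this is a description and no independent evidence. The podocyte share is the highest of 19, and its interval counts peaks as independent although several belong to the same gene. Podocytes wrap the glomerular capillaries and form the filter. The missing peaks belonged to 8 of the 19 list genes with a strong distal peak, and every strong distal peak of the remaining list genes was kept. By step of -log10 p, 7 of 23, 1 of 14, 3 of 16, 2 of 10, 0 of 6 and 0 of 3 were missing. In a sorted population, fewer cells of a type and less open chromatin per cell cannot be told apart. The gene ends of the list were open alike, 24 of 25 in each library.

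Podxl, the gene of podocalyxin, the anionic coat protein of podocyte foot processes, had 3 of 9 missing. They lay beyond the gene, in the noncoding Gm31486, at chr6:31618794-31619637, chr6:31627271-31629142 and chr6:31629540-31630865, with a -log10 p of 6.24, 7.06 and 7.75 and areas of 836, 2104 and 1798. The first of them covers the Gm31486 start printed above and lies 1.21 kb from a cKO peak. Across the locus 13 of 31 control peaks were shared, and all 16 cKO peaks overlapped a control peak. A kept peak lay between the first of them and the other two.

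The slit diaphragm and its signalling gave 5 more. Cd2ap, the adaptor that links nephrin to actin, had 2 of 6 missing, at chr17:42891825-42892684 and chr17:42916639-42917570 (-log10 p 6.36 and 7.01), beyond the gene. Ptpro, a receptor tyrosine phosphatase of podocytes, had 2 of 4 missing inside the gene, at chr6:137278663-137279896 and chr6:137287641-137288542 (6.52 and 6.20). Magi2, a scaffold of the slit diaphragm, had its single strong distal peak missing, at chr5:19180569-19181336 (7.68), 43.8 kb from a cKO peak.

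Of the transcription factor genes of the list, Wt1 and Lmx1b had 1 missing peak each and the others had none. For Wt1, which directs podocyte differentiation, it was 1 of 6, at chr2:105083906-105084610 (-log10 p 6.30) in the antisense Wt1os, and 15 of 18 other control peaks within 50 kb were kept. For Lmx1b it was 1 of 8, at chr2:33665037-33666907 (6.15), with 11 of 13 neighbours kept. The ligand gene Efnb2 had 2 of 4 missing, at chr8:8521346-8522221 and chr8:8656099-8657359 (6.15 and 6.07). Among basement membrane collagens, 1 of 4 peaks nearest to Col4a4 was missing, at chr1:82602772-82604262 (7.48), inside the neighbouring Col4a3. Without Podxl the list had 10 of 63 missing (15.9%).

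Hypoxia genes followed with 5 of 34 (14.7%, 4.95 to 31.1%; 5.74% from strength), an interval that includes the share of all peaks. Egln3, a prolyl hydroxylase that marks the hypoxia-inducible factors for degradation, had one of the strongest missing peaks of all, at chr12:54286679-54287712, with a -log10 p of 8.45, 83.2 kb from the gene. The subunits of collagen prolyl hydroxylase P4ha1 and P4ha2 had 1 of 4 and 1 of 2 missing. Arnt2, a partner of the hypoxia-inducible factors, had 2 of 5, and without it the list had 3 of 29 (10.3%).

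Markers of other cell types had missing shares whose intervals include the share of all peaks. Early nephron genes had 4 of 70 (5.71%, 1.58 to 14.0%; 6.39% from strength): Bmp7, a survival factor of the nephron progenitors, had 2 of 9, and Pax8 and Cdh4 had 1 each. At Pax8 the missing peak, chr2:24455037-24456463 (-log10 p 6.74), lay 1.15 kb from a cKO peak, with 11 of 15 neighbours kept. Interstitial genes, with Aldh1a2, Ebf2 and Lef1, had 3 of 75 (4.0%, 0.833 to 11.2%; 6.10% from strength). Distal tubule genes had 1 of 19, at Klhl3 (5.26%, 0.133 to 26.0%; 6.96% from strength). Nephron progenitor genes had 0 of 23, proximal tubule genes 0 of 22, loop of Henle genes 0 of 21, collecting duct genes 0 of 18, endothelial genes 0 of 28 and immune and erythroid genes 0 of 14. The exact upper limits of these shares are 14.8%, 15.4%, 16.1%, 18.53%, 12.3% and 23.2%, so the share of all peaks was within reach in each. Gene ends of the proximal tubule list were open for 15 genes in the control and 12 in the cKO library, and those of the immune and erythroid list for 9 and 6. These are marker lists of other cells whose end peaks differed in number between the libraries; their part in the podocyte result was not tested.

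The remaining lists had missing shares of 2.56% to 8.0%, with intervals that include the share of all peaks. Receptor tyrosine kinase signalling had 5 of 99, in the ligand genes Pdgfb and Efnb1 and the receptor genes Fgfr2, Fgfr3 and Fgfr4. The peak of Pdgfb, a ligand that recruits mesangial cells, shared the second rank among missing peaks with that of Egln3, at chr15:79983409-79985114, with a -log10 p of 8.45 and 8 of 9 neighbours kept. Hippo genes had 3 of 42 (Nf2 and Tead1), BAF subunit genes 2 of 25 (both in Dpf3), Notch genes 2 of 41 (Hes1 and Numb), Wnt genes 2 of 71 (Fzd10 and Tcf7l1), TGF-beta and BMP genes 2 of 78 (Acvr2b and Tgfb2), AP-1 genes 1 of 17 (Jun), and cytoskeleton, adhesion and matrix genes 3 of 100 (Itgb6, Lama5 and Nrp1). Smarca4 itself had no missing peak assigned, and all 25 BAF genes had an end peak in both libraries, which does not show whether the deleted part of Smarca4 was present. Over the 19 lists, 46 of 869 strong distal peaks were missing, in 37 genes.

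**Figure D5:**
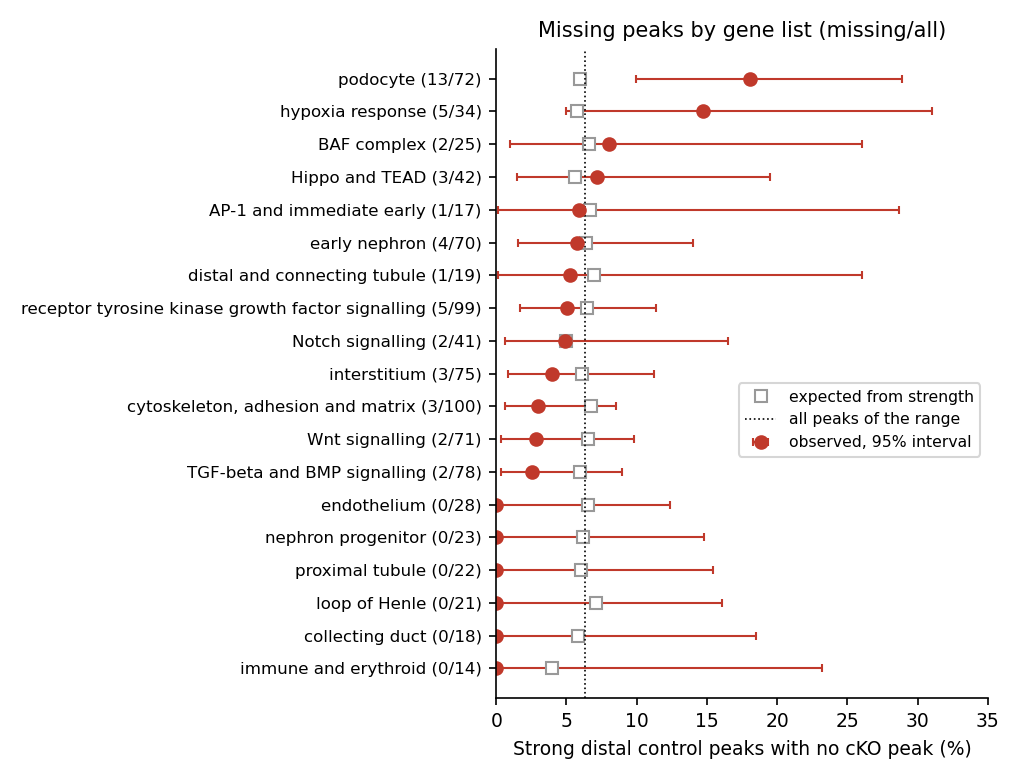
Percent of strong distal control peaks with no cKO peak (x axis) for 19 gene lists (y axis, with missing and total peaks); red points are shares with exact 95% intervals, squares the share expected from strength and the dotted line the 6.34% of all peaks of the range. The podocyte list, at 18.1%, is the one whose interval lies wholly above the line.

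The 20 strongest missing peaks had a -log10 p of 7.78 to 8.96; 10 lay inside a protein-coding gene and 4 more than 100 kb from any protein-coding gene end. The strongest was at chr17:27406469-27407761, between genes and 15.3 kb from Grm4, a metabotropic glutamate receptor gene, with an area of 2648; it ranked 1820 among the 18028 strong distal control peaks, so each of the stronger ones was kept. It was 14.5 kb from the nearest cKO peak, and 3 of 10 other control peaks within 50 kb were kept. Next after Pdgfb and Egln3 came peaks in Ccdc30, near Sipa1l2 and in Nars2, a mitochondrial tRNA synthetase gene, with 8.38, 8.38 and 8.31.

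Several of the 20 stood beside kept peaks. The wide peak in Poc1b (8.17) had 8 of 8 neighbours kept, the peak in the aldose reductase gene Akr1b3 (8.17) 4 of 5, that beside Tut7 (7.78) 8 of 9 and that beside Zfp36l1 (7.86), whose product triggers mRNA decay, 8 of 10. A few were isolated. The peak nearest to Cdyl, a chromodomain corepressor gene, at chr13:35485921-35486534 (7.88), was 173 kb from the nearest cKO peak. The one inside Sema5a, a semaphorin gene, at chr15:32533511-32534391 (7.80), was 95.5 kb from one. Each had 1 other control peak within 50 kb, and it was not kept. Others lay in Gabbr2, Fkbp9, Acsl6, Med13l and Taf5l, and outside genes with Tmx1 and Kcnj12 nearest, with a -log10 p of 7.78 to 8.04.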

How the data were processed

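The 2 ATAC-seq peak lists, 1 per genotype, were used as deposited. The submitters' processing notes name Trim Galore, SAMtools, Genrich and the build mm10, with no roles; the aligner, settings, versions, and handling of duplicates and read end shifts were not given in the sources used here. Each peak has the authors' deposited score (capped at 1000, not used), the deposited signal (area under the peak caller's curve; no peak was under 200) and the deposited -log10 p and -log10 q of its summit. The control list reached down to a -log10 p of 3.59 and the cKO list to 3.58. These values depend on a library's depth and background, so they ranked peaks within a list only.

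Gene positions are those of RefSeq for GRCm38.p6, and coordinates are 1-based. The members, the gene lists and the comparisons were chosen with earlier results of these data known. Expected shares are those over the strong distal control peaks of the range in the same 0.5 step of -log10 p. For neighbours they are those over all control peaks of the same step and the same side of the 1000 bp limit from a gene end. Medians and shares of kept peaks were weighted to the steps of the missing ones. Named regions were the 20 with the highest -log10 p, those assigned to list genes, genes with 2 or more, the extremes of gap and width, and those nearest the threshold (some are not reported here); those over a start window were added after their values were seen. Of 480 list genes 2 were not matched. Python 3.11.15, numpy 2.4.6, pandas 2.3.3, scipy 1.17.1 and matplotlib 3.10.9 were used, and overlap and interval code was tested on simulated data. With no genome sequence used here, the planned comparison of motifs at summits was not run. Alternatives changed the overlap, the strength threshold, the limit at gene ends, the gene class, the measure of strength, the cKO list, the list length and the assignment distance.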

Additional observations from a re-analysis of the deposited data

How the results depend on the processing

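The 10 results were recomputed under 18 settings, 14 planned and 4 added after seeing the data (cKO peaks with a -log10 p of at least 5, 10 classes by area, and lists without Podxl or Arnt2). Of 141 values, 105 stayed within counting error or 1.5 times the count, 33 moved and 3 reversed. The cause was not tested. The 105 include values that a setting could not change, as named at the end. The width difference reversed: the median of missing minus kept peaks, -100.1 bp as reported, was 2.61 bp with an overlap of at least 50%, 39.4 bp with strength by area and 9.47 bp with cKO peaks of at least 5. It moved to -168.1 bp with a -log10 p of at least 7, -123.3 bp with no limit at gene ends and -16.5 bp with classes by area, so a smaller width depends on how strength and overlap are defined.

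The difference in median area, -160.4 as reported, was -129.6 with 50% overlap, -201.1 at 7, -199.8 beyond 5000 bp, -197.7 with no limit, -115.9 by area, -22.2 with cKO peaks of at least 5 and -98.1 with classes by area. The number of missing peaks was 1610 with 50% overlap, 5954 at 5, 145 at 7 and 2273 with cKO peaks of at least 5. The percent missing was 9.42 with 50% overlap, 5.35 when a cKO peak within 2000 bp counted as shared, 17.7 at 5, 2.19 at 7, 7.09 beyond 5000 bp, 5.12 with no limit and 14.0 with cKO peaks of at least 5. The median gap to a cKO peak was 2.61 kb with 50% overlap, 10.2 kb with the 2000 bp rule, 8.96 kb at 7, 9.07 kb beyond 5000 bp and 10.1 kb with cKO peaks of at least 5.

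The excess inside protein-coding genes, 9.42 points, kept its sign in all settings, and was 6.26 at 7 (interval -2.14 to 14.1) and 14.2 by area. The deficit over start windows, -1.20 points, was -1.74 at 7 (interval -2.95 to 1.77), -6.77 with no limit and -2.77 with ends of protein-coding genes only; its interval also included 0 beyond 5000 bp (-1.27 to 0.0695) and with strength by area (-1.34 to 0.195). The deficit of kept neighbours within 10 kb, -13.7 points, was -7.48 at 5 and -6.79 with cKO peaks of at least 5, and -11.3 to -16.0 elsewhere. The podocyte excess, 11.7 points, ran from 8.66 to 18.1 and its interval stayed above 0. The settings reuse largely the same peaks, and the interval treats peaks of 1 gene as independent, so this is no separate support. The hypoxia excess, 8.36 points, ran from 3.40 to 9.58 with intervals that include 0, and was 4.003 without Arnt2. No cKO peak had a -log10 p under 3, so that setting changed nothing. Equal list lengths left every strong control peak in place, so only the result on neighbours could change there. The 2 other motif windows were not run. No paired analysis was possible because each genotype had 1 library, and leaving out a library was not possible for the same reason.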
